A study of Homo sapiens with 4 samples.

Results

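The histone genes were examined in RNA-seq libraries of H1299, a long-established line of human non-small-cell lung carcinoma, in cells exposed for 48 h to 5 μM mercury chloride (HgCl2) and of control cells given the ethanol (EtOH) solvent. The members are the protein-coding genes whose symbols name a core histone, a linker histone H1 or a macroH2A. They number 87 of 19926 protein-coding genes with a listed transcript, and 175 of the 227368 transcripts of the deposited table are theirs. Of the 87 genes, 72 are replication-dependent genes, which lie mostly in clusters on chromosomes 6 and 1, 11 are replacement variants and 4 are germline genes. Each group has 2 columns of counts, labelled replicates 1 and 2. The treatment text of the labels names 5 μM HgCl2 for all 4 samples, whereas the study's own description gives none to the controls, and the groups here follow the sample titles. Both groups share the line and poly-A selection of the RNA, and H1299 is a single line.

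The columns held 5051958 and 5053120 counts in EtOH and 4722772 and 4720978 in HgCl2. Before any comparison, the columns of a group were compared with each other. The variance between the EtOH columns was 0.504 of that expected from counting noise (95% interval 0.492 to 0.517, over 12382 transcripts), and it was 0.516 between the HgCl2 columns. Over histone transcripts it was 0.458 and 0.364. Between the first columns of the 2 groups it was 41.8 over histone transcripts (27.4 to 71.8) and 31.9 over all transcripts. Since the columns of a group differed by less than sampling noise, each group counts as 1 sample here, which leaves no test between conditions. Fold changes are given with 95% Clopper-Pearson intervals, computed from mean counts and covering no error beyond that of counting, and differences of at least 2-fold (1 on the log2 scale) are called higher or lower. VIM, a mesenchymal filament gene of many carcinoma lines, held 620, 628, 501 and 511 counts in the columns EtOH 1, EtOH 2, HgCl2 1 and HgCl2 2, and all series of 4 values below follow that order. The epithelial keratin genes KRT8 (53, 58, 4 and 4) and KRT18 (23, 24, 18 and 31) were detected, whereas the leukocyte gene PTPRC and the alveolar gene SFTPC were at 0. The endothelial PECAM1 held 5, 4, 1 and 2 counts and the fibroblast gene COL1A1 held 13, 18, 3 and 4.

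Histones package DNA into nucleosomes, each built from the core histones H2A, H2B, H3 and H4 and bound outside by the linker histone H1. Replication-dependent genes supply histones for new DNA in S phase, and most of their mRNAs end in a short stem-loop, bound by the protein SLBP, in place of a poly-A tail. Replacement variants such as H3.3, H2A.Z and macroH2A are made throughout the cell cycle from spliced, polyadenylated mRNAs and enter chromatin outside replication. Poly-A selection keeps mRNAs with a tail, so the counts below cover the tailed or carried-over histone RNA and not the whole pool. In bulk RNA, fewer cells in S phase and less histone RNA per cell cannot be told apart.

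The stem-loop sets the classes apart in sequence, which is why it is shown for the genes described below. A match to GG, 2 letters of any kind, CTTTT, 1 letter, AG, 2 letters and CC was searched on the coding strand within 150 bases after each stop codon (GRCh38, GENCODE 44). It was found in 68 of 72 replication-dependent genes (94.4%), in 1 of 11 replacement genes, H2AX, in 0 of 4 germline genes and in 1 of 19520 other protein-coding genes. Capitals mark the 16 matched letters, and coordinates are those of the capitals.
H2BC21 (chr1:149886188-149886203, minus strand): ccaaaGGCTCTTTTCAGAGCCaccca
H2BC9 (chr6:26252055-26252070, plus strand): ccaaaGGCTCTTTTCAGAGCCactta
H2AC11 (chr6:27133515-27133530, plus strand): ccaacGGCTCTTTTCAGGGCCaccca
H3C8 (chr6:26270923-26270938, minus strand): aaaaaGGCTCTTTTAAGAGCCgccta
H4C5 (chr6:26205001-26205016, plus strand): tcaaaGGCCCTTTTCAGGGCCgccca
H4C16 (chr12:14770724-14770739, minus strand): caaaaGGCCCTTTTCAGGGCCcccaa
H4C14 (chr1:149833032-149833047, plus strand): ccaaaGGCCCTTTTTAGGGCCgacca
H4C15 (chr1:149860769-149860784, minus strand): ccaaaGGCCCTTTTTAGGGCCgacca
H2AX (chr11:119094898-119094913, minus strand): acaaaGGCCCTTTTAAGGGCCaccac
The core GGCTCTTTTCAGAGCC of H2BC21 and H2BC9 was the commonest, in 41 genes. H4C14 and H4C15 carry one and the same stretch.

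Few replication-dependent genes were well counted. In the deposited counts, 37 of the 72 had a count in at least 1 column and 35 were at 0 in all 4, against 10 and 1 of the 11 replacement genes. The 4 germline genes, the oocyte and testis histones H1-7, H1-8, H2BW1 and H2BW2, were at 0, as were the testis genes H1-6 and H3-4. Of the 35 replication-dependent genes at 0, 31 have a transcript with at least 150 bases that no other listed transcript covers. A 0 is not absence where reads on bases shared by several transcripts were not counted. H2AX, the variant that is phosphorylated at DNA breaks, has 2 transcripts, 1 with no base of its own and 1 with 219, and both were at 0.

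Single-exon genes with more counts mostly had longer transcript models. The length that the authors' annotation gave each transcript can be read from the ratio of its count to its FPKM (fragments per kilobase of transcript, scaled for depth). Of 10 single-exon replication-dependent transcripts with a mean of 30 counts or more, 9 had a length of at least 1000 bases there, and the median was 2007 bases. Of 19 with fewer counts, 5 did, and their median was 549 bases. H2AC11 was 2250 bases long in that annotation and 493 in GENCODE 44, where its model ends 5 bases after the stem-loop. H2BC9 was 2060 bases long against 462, and H3C8 2411 against 496. H2BC21 is long in both, with 2194 and 2224 bases, and its GENCODE 44 model runs 1729 bases past the stem-loop. Short models were counted too, with 381 bases for H2BC12 and, among spliced transcripts, 659 for H2BC4 and 789 for H2BC5. The counts do not show on which bases of a model the reads lay.

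**Figure D1:**
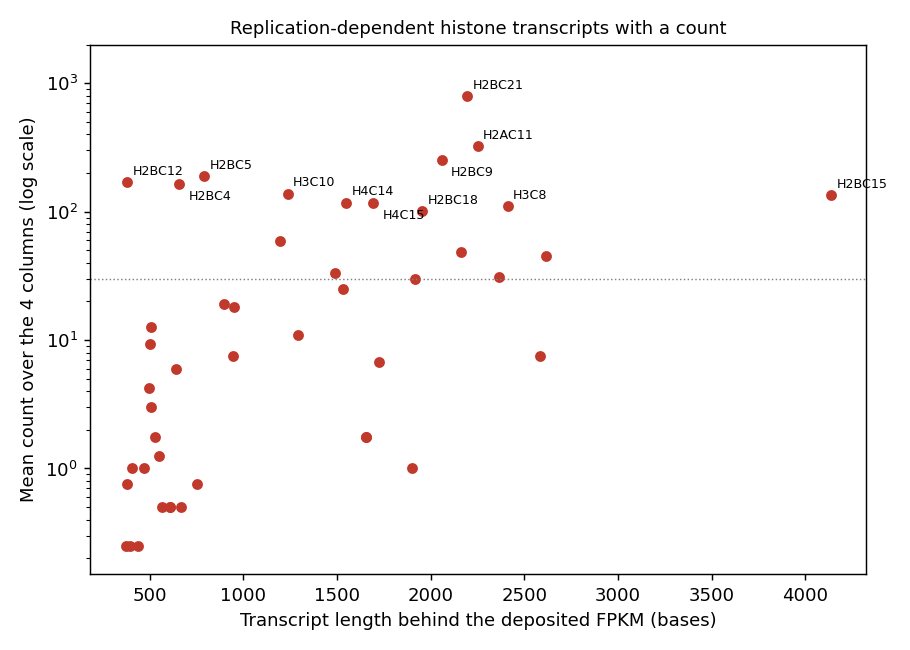
Mean count over the 4 columns (log scale) against the transcript length behind the deposited FPKM, in bases, for replication-dependent histone transcripts with a count. Each point is 1 transcript, those with a mean of 100 counts or more are named, and the dotted line marks 30 counts. Most points above the line lie beyond 1000 bases, and H2BC12, H2BC4 and H2BC5 lie above it at 381, 659 and 789 bases.

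Histone transcripts were lower in HgCl2 more often than higher. Of 44 histone transcripts, from 36 genes, that passed the study's filter (FPKM above 1 in at least 1 group) and exceeded 3 counts in a group, 18 were at least 2-fold lower (40.9%) and 3 at least 2-fold higher (6.82%). Among all 16462 transcripts that passed, 23.5% were lower and 18.1% higher. A filter on FPKM admits short histone transcripts with few counts, and 16 of the 44 had a mean under 30 counts. It also admits transcripts through the group where they are high. Some of the 18 lower ones, such as H4C16, passed through EtOH alone, so their calls partly follow from the filter. None of the 3 higher ones passed through HgCl2 alone. Of the 44, 6 had an HgCl2 mean at or under 3 counts and 0 an EtOH mean that low. Among 34 histone transcripts with a mean of 10 counts or more, 14 were lower and 3 higher, against 19.6% and 21.2% of all such transcripts. Among 28 with a mean of 30 counts or more, 9 were lower (32.1%) and 3 higher (10.7%), against 9.63% and 15.5% of 7156. The counting interval lay below 0 for 18 of these 28 (64.3%) and above 0 for 6 (21.4%), against 24.4% and 44.9% of the 7156. The median log2 fold change of the 28 was −0.65, where the median of the 7156 was 0.21. Values below are on the scale of TMM, the trimmed mean of M-values. Those of transcripts with a mean of 30 counts or more are to be read against that 0.21. Under 6 other scalings 19 of the 28 kept a negative and 6 a positive value, and the sign of H3-3B, H2BC5 and H4C8 changed.

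**Figure D2:**
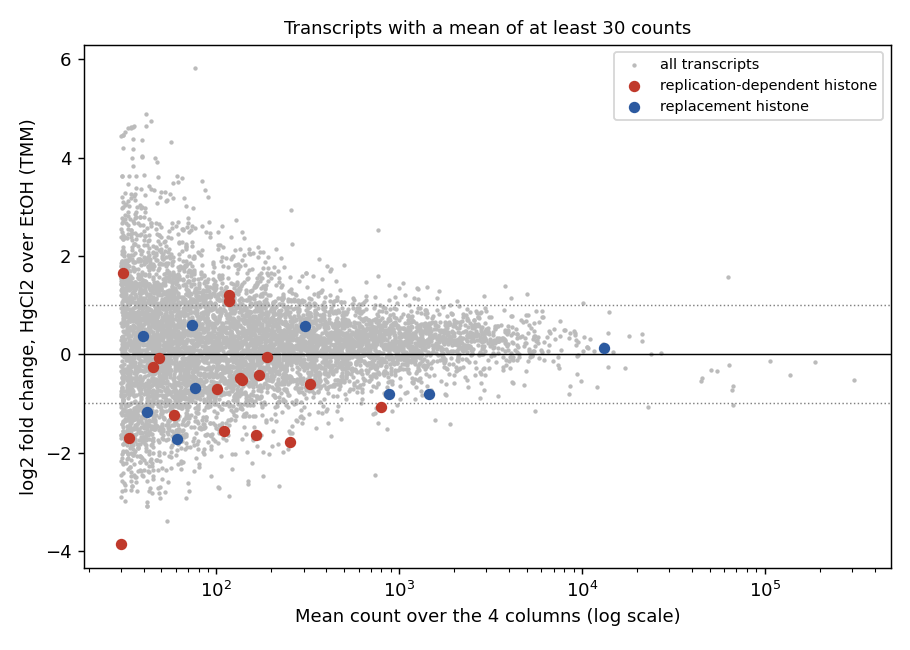
Log2 fold change, HgCl2 over EtOH, against the mean count over the 4 columns (log scale) for the 7156 transcripts with a mean of 30 counts or more. Grey points are all transcripts, red points replication-dependent and blue points replacement histone transcripts, and dotted lines mark 2-fold. Most histone points lie below 0, and H3-3B stands at the right edge of the histones near 0.

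Both classes had negative medians. The 30 tested replication-dependent transcripts had a median log2 fold change of −0.66, with 13 lower and 3 higher. The 14 tested replacement transcripts had one of −0.80, with 5 lower and 0 higher. These 14 came from 9 genes, and MACROH2A1 alone gave 4 of them. Both classes include transcripts not annotated as protein-coding, among them retained introns in the 14. Neither median is therefore one of coding mRNAs alone. Among all 16462 tested transcripts the median was −0.11, with 23.5% lower and 18.1% higher. With a mean of at least 30 counts the medians were −0.57 over 18 transcripts and −0.75 over 10, where that of all such transcripts was 0.21. The summed counts of the replication-dependent genes were 3900, 3911, 2108 and 2124, a log2 fold change of −0.74 (−0.82 to −0.66). Those of the replacement genes were 18424, 18592, 16116 and 16031, a log2 fold change of −0.06 that is positive on the FPKM scale. One transcript of H3-3B accounts for that gap, with 59.4% and 59.3% of all histone counts in EtOH and 72.1% and 72.3% in HgCl2. These are shares of the counts and not of histone RNA, since reads on bases shared by several transcripts appear not to be counted. Without H3-3B the replacement genes summed to 5149, 5236, 2984 and 2897, a log2 fold change of −0.68 (−0.74 to −0.61), whose interval overlaps that of the replication-dependent sum. The medians of both classes hide a wide range, which the genes below show.

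**Figure D3:**
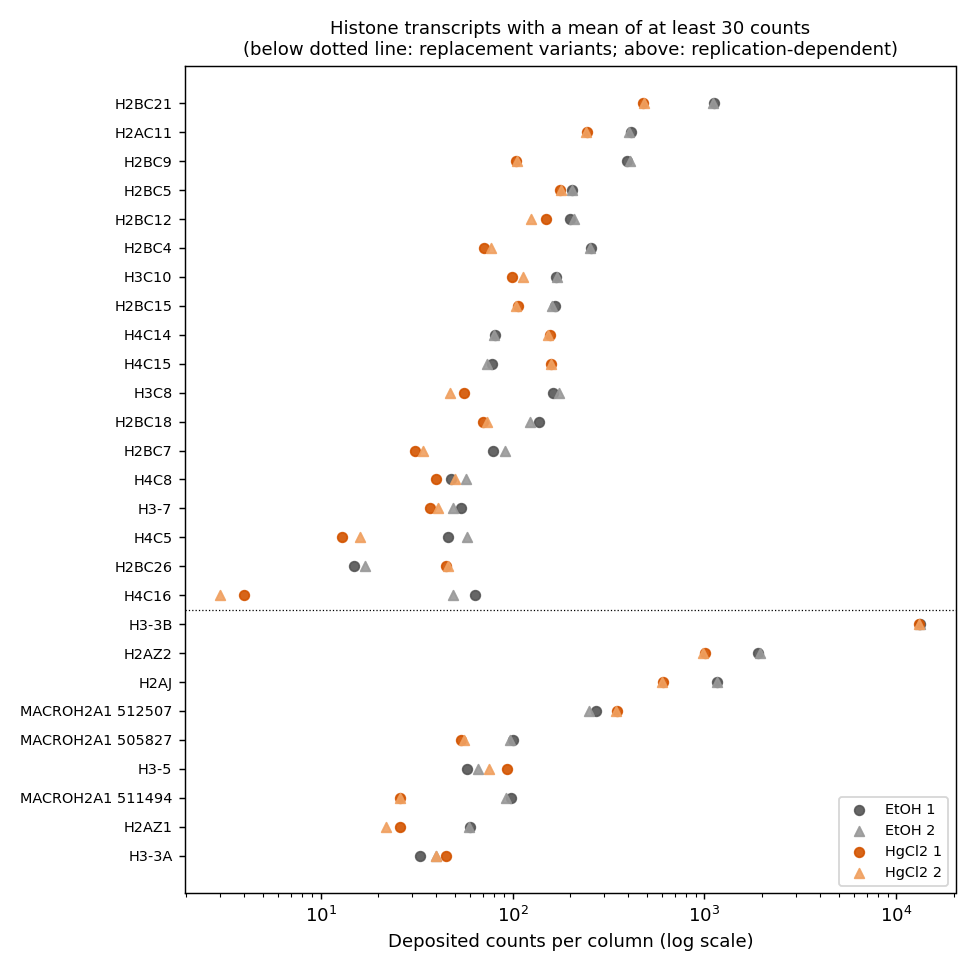
Deposited counts in each of the 4 columns (log scale) for the 27 reported histone transcripts with a mean of 30 counts or more. Grey symbols are the EtOH and orange symbols the HgCl2 columns, circles column 1 and triangles column 2, and digits after MACROH2A1 are the end of the transcript identifier. Columns of a group lie close together, and the HgCl2 symbols lie left of the EtOH symbols for most transcripts.

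H2B genes held most replication-dependent counts, and these were lower in HgCl2. Their sum was 2677, 2681, 1255 and 1255, a log2 fold change of −0.95 (−1.05 to −0.85). H2BC21 (ENSG00000184678, ENST00000369155, chr1:149884459-149886682, minus strand, 1 exon), the member with most counts of its class, had 1123, 1109, 477 and 483. Both HgCl2 columns lay far below both EtOH columns, with a log2 fold change of −1.07 (−1.23 to −0.92), or −0.90 on the FPKM scale. H2BC9 (ENST00000619466, chr6:26251614-26252075, plus strand) had 396, 408, 104 and 106 counts, with a log2 fold change of −1.79 (−2.12 to −1.48). H2BC4 (ENST00000314332) had 256, 254, 71 and 77 counts, with a log2 fold change of −1.64 (−2.03 to −1.26). H2BC7 had 79, 91, 31 and 34 counts and a log2 fold change of −1.24 (−1.87 to −0.64). In these 4 genes both HgCl2 columns lay below both EtOH columns. After TMM scaling that held for 20 of the 28 histone transcripts, and the reverse for 7, against 34.4% and 56.4% of the 7156 transcripts. As the columns of a group are 1 sample, such a separation adds no replicate support, here or below.

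Other H2B genes differed less or in the other direction. H2BC18 had 138, 123, 70 and 74 counts (−0.71, −1.15 to −0.29). H2BC15 (ENST00000606613) had 167, 160, 107 and 104 counts (−0.49, −0.85 to −0.13). H2BC12 had 200, 208, 149 and 125 counts (−0.43, −0.75 to −0.11). All 3 were lower in both HgCl2 columns by less than 2-fold, and on the FPKM scale the intervals of H2BC12 and H2BC15 hold 0. H2BC5 (ENST00000289316), a spliced transcript of the chromosome 6 cluster, had 204, 203, 176 and 178 counts, and its log2 fold change of −0.06 (−0.36 to 0.24) was within counting error. H2BC26 (ENST00000620438, chr1:228458103-228463104, plus strand) stood apart with 15, 17, 45 and 46 counts, a log2 fold change of 1.65 (0.80 to 2.57). Its values were low in EtOH and higher in both HgCl2 columns. It lies on chromosome 1 away from the larger clusters. In the GENCODE 44 models, only 44.8% of the 75-base words of H2BC4, 40.7% of H2BC18 and 61.0% of H2BC12 are found in no other gene. Counts on the shared words are less certain. The share was 100% for H2BC9 and 95.1% for H2BC21. The counted models of H2BC9 (2060 bases against 462) and H2BC18 (1954 against 492) were longer, and their further bases were not searched. The genes can therefore not be ranked by certainty from these shares.

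Among the 4 tested H2B transcripts with fewer counts, 3 were at least 2-fold lower, beside 23.5% of all tested transcripts. The other was the short H2BC5 transcript ENST00000377777, with 5, 5, 4 and 3 counts (−0.37, −2.86 to 1.91). H2BC8 had 34, 39, 12 and 15 counts (−1.29, −2.31 to −0.36). H2BC11 had 23, 34, 7 and 8 (−1.78, −3.17 to −0.59). A second transcript of H2BC15, ENST00000612898, had 14 and 13 counts in EtOH and 0 in both HgCl2 columns, and was at least 4.07-fold lower when the HgCl2 mean is set to 3 counts. It passed the FPKM filter through EtOH only. H2BC6, which did not pass the FPKM filter, had 15, 12, 2 and 1 counts, and its interval ran from −6.95 to −0.66 about a log2 ratio of −3.03.

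H2A genes were less often counted. Their sum was 452, 447, 274 and 268, a log2 fold change of −0.59 (−0.81 to −0.37). H2AC11 (ENST00000359193, chr6:27133043-27133535, plus strand) held most of it, with 412, 405, 243 and 241 counts (−0.61, −0.85 to −0.38). Its groups did not overlap. None of the 5 tested H2A transcripts was 2-fold apart, but H2AC21 (3, 4, 0 and 0) and H2AC8 (4, 4, 2 and 2) could not have been called, since HgCl2 means at or under 3 counts are set to 3. H2AC25 had 18, 20, 21 and 17 counts, in which the groups overlap.

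Many H2A and H2B genes stand head to head and share 1 promoter, which is known to drive both. In 12 such pairs, with starts 214 to 292 bases apart, 3 had counts at both genes, 6 at 1 gene and 3 at neither. H2BC11 and H2AC11 form 1 pair, with log2 fold changes of −1.78 and −0.61 whose intervals (−3.17 to −0.59 and −0.85 to −0.38) overlap. H2AC25 and H2BC26 form another, with 0.14 (−0.85 to 1.14) and 1.65 (0.80 to 2.57), whose intervals also overlap. In H2BC8 and H2AC8 the counts were 34, 39, 12 and 15 beside 4, 4, 2 and 2. The promoters of the first 2 pairs are shown from RefSeq (GRCh38.p14), as the 250 bases before the start of the gene on the plus strand. Capitals mark the octamer ATTTGCAT, bound by OCT1, the CCAAT box and the TATA box TATAAA, on either strand.
Promoter between H2BC11 and H2AC11 (chr6:27132793-27133042, plus strand): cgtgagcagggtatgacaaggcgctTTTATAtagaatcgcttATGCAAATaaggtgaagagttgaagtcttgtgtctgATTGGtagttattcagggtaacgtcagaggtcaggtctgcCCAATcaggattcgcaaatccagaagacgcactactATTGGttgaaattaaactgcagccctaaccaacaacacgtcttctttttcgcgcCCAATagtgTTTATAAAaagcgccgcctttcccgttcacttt
Promoter between H2AC25 and H2BC26 (chr1:228457853-228458102, plus strand): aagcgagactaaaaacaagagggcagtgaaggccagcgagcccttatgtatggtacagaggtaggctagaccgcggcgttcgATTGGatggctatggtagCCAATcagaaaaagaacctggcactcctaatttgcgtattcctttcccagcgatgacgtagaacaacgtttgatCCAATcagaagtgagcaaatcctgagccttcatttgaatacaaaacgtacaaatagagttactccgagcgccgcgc
The first holds all 3 motifs and the second only CCAAT. The octamer lay in 15 of 20 H2B and 11 of 16 H2A promoters with an entry, in 1 of 15 H3 (the entry for H3C4, which is the same interval as that for H2AC7), 0 of 13 H4 and 0 of 6 H1 promoters, and in 1.63% of all 35116 promoters. CCAAT lay in 60 of 70 replication-dependent promoters (85.7%) and 32.0% of all, and TATAAA in 47 of 70 (67.1%) and 10.7% of all. None of these matches shows binding.

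H3 genes were lower as well, at summed counts of 410, 420, 201 and 211, a log2 fold change of −0.87 (−1.11 to −0.62). H3C8 (ENST00000614378, chr6:26270918-26271413, minus strand) had 162, 174, 56 and 47 counts, with a log2 fold change of −1.56 (−2.04 to −1.10). H3C10 (ENST00000369163) had 169, 171, 99 and 114 counts and a smaller difference of −0.53 (−0.89 to −0.17), whose interval holds 0 on the FPKM scale. In both the groups did not overlap. H3C2 had 16, 23, 6 and 6 counts (−1.56, −3.17 to −0.18). H3-7 on chromosome 1 had 54, 49, 37 and 41 counts, and its interval (−0.90 to 0.37) holds 0.

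H4 genes moved in both directions, and the sign of their sum rested on 2 near-identical genes. The sum was 350, 350, 376 and 390, a log2 fold change of 0.27 (0.06 to 0.49). Without H4C14 and H4C15 it was 180, 183, 58 and 73, a log2 ratio of −1.33. H4C14 (ENST00000618193, chr1:149832668-149834484, plus strand) had 81, 80, 156 and 153 counts, higher in HgCl2 by 1.08 (0.69 to 1.49) on the log2 scale. H4C15 (ENST00000612061, chr1:149859185-149861148, minus strand) had 78, 74, 158 and 158 counts, higher by 1.20 (0.80 to 1.61). With TMM over transcripts of 30 mean counts or more, H4C14 was at 0.88 and H4C15 at 0.998, under 2-fold. None of the 75-base words of either transcript is particular to its gene, so both may hold the same reads, and each is uncertain. Both are annotated as spliced transcripts subject to nonsense-mediated decay, the pathway that degrades mRNAs with an early stop. A second tested H4C14 transcript, ENST00000614272, had 9, 11, 4 and 6 counts (−0.86, −2.75 to 0.83), with the opposite sign. Summed over its transcripts, H4C14 had 91, 92, 160 and 159 counts, so the 2-fold call is that of 1 transcript. H3C14 and H3C15, from the same duplicated region of chromosome 1, held the same 4, 1, 1 and 1 counts.

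The other H4 genes were lower or near level. H4C16 (ENST00000358064, chr12:14767999-14771131, minus strand), the H4 gene on chromosome 12, had 64, 49, 4 and 3 counts. Its log2 fold change of −3.87 (−5.96 to −2.35) was the largest of the 28 transcripts with a mean of 30 counts or more, on a spliced transcript that is also annotated for decay. H4C5 (ENST00000615164, chr6:26204610-26205021, plus strand) had 46, 58, 13 and 16 counts (−1.70, −2.65 to −0.84). H4C8 had 48, 57, 40 and 50 counts, in which the groups overlap (−0.08, −0.69 to 0.52). H4C9 had 22, 17, 1 and 4 counts, a log2 ratio of −2.82 (−5.52 to −0.94).

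By position, values on chromosome 6 were negative and those on chromosome 1 of both signs, and the chromosomes were not tested against each other. Of 11 replication-dependent transcripts on chromosome 6 with a mean of 30 counts or more, the interval lay below 0 for 9 and above 0 for 0, against 24.4% and 44.9% of all. At least 2-fold lower were 5 of the 11, against 9.63% of all. Their values ran from −1.79 to −0.06, and the intervals of H2BC5 and H4C8 hold 0. Of 6 on chromosome 1, the interval lay below 0 for 2 (H2BC21 and H2BC18) and above 0 for 3 (H4C14, H4C15 and H2BC26), with H3-7 in between. These counts are near the same 24.4% and 44.9% of all, and 6 transcripts are few. The 3 higher replication-dependent transcripts were all on chromosome 1, and 2 of these are the near-identical copies. The linker histone genes of the replication-dependent class were nearly uncounted. H1-2, which compacts nucleosome arrays, had 10, 12, 2 and 0 counts, a log2 ratio of −3.32 (−8.74 to −0.53).

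**Figure D4:**
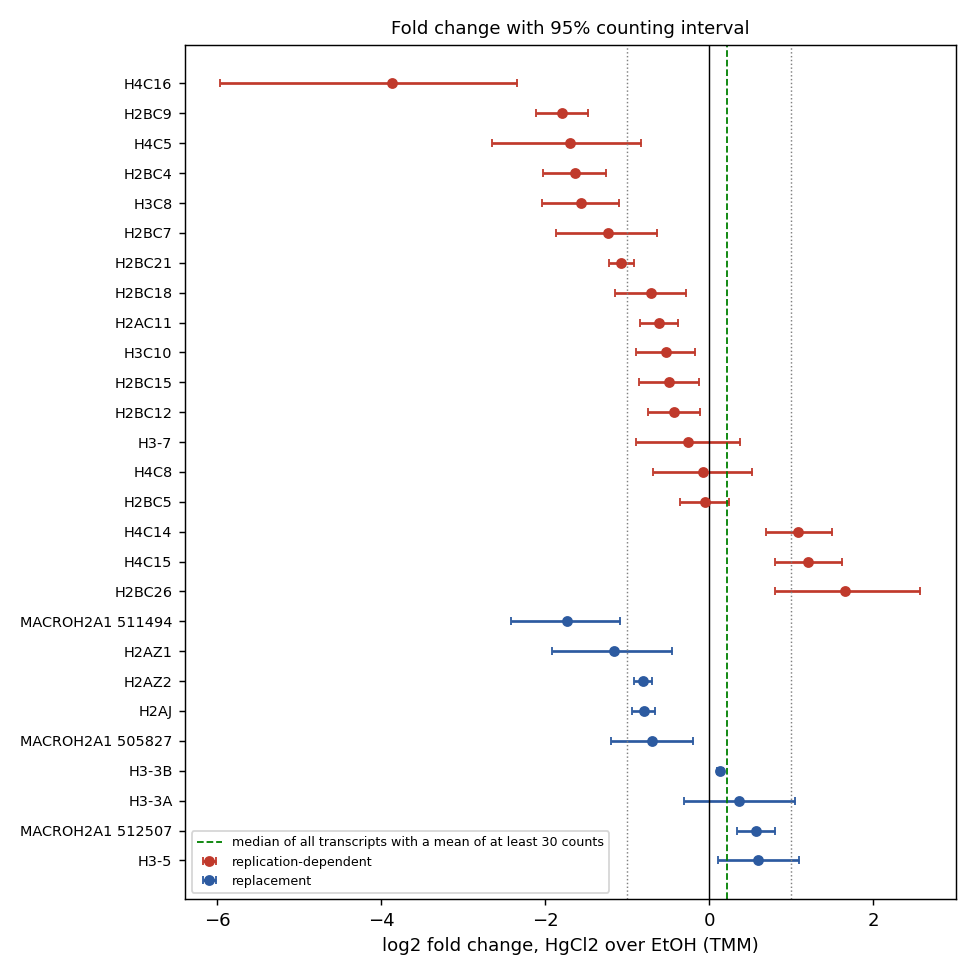
Log2 fold change, HgCl2 over EtOH, of the 27 reported histone transcripts with a mean of 30 counts or more, with 95% counting intervals. Red points are replication-dependent and blue points replacement transcripts, dotted lines mark 2-fold, and the dashed line is the median of all 7156 transcripts, 0.21. H4C16 lies farthest left at −3.87 and H2BC26 farthest right at 1.65.

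Among the replacement variants, the most-counted H3.3 gene differed by less than the choice of scaling, whereas the intervals of the most-counted H2A.Z and H2AJ transcripts lay below 0. H3-3B (ENSG00000132475, ENST00000254810, chr17:75776434-75779779, minus strand, 4 exons), which encodes H3.3, had 13270, 13347, 13132 and 13134 counts. Its log2 fold change was 0.13 (0.09 to 0.16), and −0.08 to 0.30 across scalings, so its direction depends on the scaling. By FPKM, a level per length, it stood at 893, 898, 1104 and 1104, above every other histone transcript. Such a ranking between genes is uncertain, since reads on bases shared by several transcripts appear not to be counted. H3-3A, for example, had a count on 3 of its 10 listed transcripts, so the levels of the H3.3 genes cannot be compared. H3-3A (ENST00000366814), the other H3.3 gene, had 33, 40, 45 and 40 counts, in which the groups touch (0.36, −0.31 to 1.04). A second H3-3A transcript, ENST00000366813, had 12, 11, 3 and 4 counts (−1.57, −3.83 to 0.24). H3-5, an H3.3-like gene without introns on chromosome 12, had 58, 66, 94 and 75 counts (0.59, 0.10 to 1.09), and its interval holds 0 with TMM over transcripts of 10 mean counts or more.

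The H2A.Z genes were counted on 3 transcripts with negative values, of which 1 passed 2-fold. H2A.Z is a variant found in nucleosomes next to promoters. H2AZ2 (ENST00000222690, chr7:44826791-44848077, minus strand, 5 exons) had 1908, 1948, 1007 and 988 counts, with a log2 fold change of −0.81 (−0.92 to −0.70). The groups lay far apart, and the FPKM was 91.3, 93.2, 60.2 and 59.1. A second H2AZ2 transcript, ENST00000446531, had 9, 10, 5 and 4 counts, and its interval (−2.95 to 0.82) holds 0. H2AZ1 was counted on 1 transcript only, a retained intron (ENST00000511348). It had 60, 59, 26 and 22 counts (−1.17, −1.91 to −0.46), and stood at −0.99 on the FPKM scale. The coding transcripts of H2AZ1 have no base of their own and were at 0, so the level of H2AZ1 mRNA cannot be read here.

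H2AJ, a variant known to accumulate in senescent cells, was counted on 1 of its 3 listed transcripts. That transcript was 1.74-fold lower, short of the 2-fold call, though it reached −1.003 with TMM over transcripts of 30 mean counts or more. It (ENST00000501744, chr12:14774582-14778002, plus strand) had 1164, 1164, 611 and 598 (−0.80, −0.95 to −0.66), on a transcript annotated for decay. The intervals of H2AZ2 and H2AJ overlap, and the groups of each do not. H1-10 had 13, 9, 1 and 1 counts, a log2 ratio of −3.32 (−8.74 to −0.53).

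Transcripts of MACROH2A1, which encodes an H2A with a large added macrodomain, differed in direction. ENST00000512507 (chr5:135334381-135362901, minus strand), without an annotated coding sequence, had 272, 249, 352 and 347 counts (0.57, 0.33 to 0.81). The retained intron ENST00000511494 had 98, 93, 26 and 26 (−1.73, −2.42 to −1.09), and the retained intron ENST00000505827 100, 97, 54 and 56 (−0.70, −1.20 to −0.21). ENST00000451949, also without an annotated coding sequence, had 24, 32, 5 and 8 (−1.96, −3.46 to −0.70). Intervals of the first and of the other 3 do not overlap, so no single fold change describes the gene. Only these 4 of its 20 listed transcripts had a count, and none of them is annotated as protein-coding. The level of its coding mRNA can therefore not be read here. Parts of these transcripts overlap other genes. MACROH2A2 had 3, 4, 0 and 0 counts.

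The genes that process, load and exchange histones had calls in both directions. In the list for 3′ end processing and decay of histone mRNA, 17 of 25 genes had 27 tested transcripts, of which 3 were higher (11.1%) and 5 lower (18.5%), against 18.1% and 23.5% of all tested transcripts. The most-counted transcript of SLBP, the stem-loop binding protein, had 1, 0, 0 and 0 counts. That does not show absence, since reads on bases shared by several transcripts appear not to be counted. In the list for histone gene transcription, 4 of 15 tested transcripts were higher (26.7%) and 1 lower (6.67%), beside the same 18.1% and 23.5%. NPAT, the coactivator of replication-dependent histone genes, had 241, 259, 307 and 317 counts (0.46, 0.22 to 0.71), and a retained intron of its partner CASP8AP2 had 1, 1, 7 and 7 (log2 interval −0.01 to 8.45). A YY1 retained intron had 16, 20, 48 and 50 (1.59, 0.78 to 2.46).

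Among replication-coupled chaperones, 8 of 37 tested transcripts were higher (21.6%) and 7 lower (18.9%), near the 18.1% and 23.5% of all transcripts, and the list's median was 0.00085. The members named went both ways. ASF1B, a chaperone of new H3 and H4, had 66, 58, 13 and 7 counts (−2.49, −3.62 to −1.51). The CAF-1 subunits, which load H3 and H4 behind the fork, had 41, 41, 18 and 11 for CHAF1A (−1.36, −2.33 to −0.46) and 71, 94, 32 and 27 for CHAF1B (−1.34, −2.00 to −0.72). Of the FACT complex, SUPT16H had 12, 11, 102 and 97 (3.26, 2.37 to 4.28) and a retained intron of SSRP1 33, 36, 82 and 93 (1.49, 0.90 to 2.10). NASP, which stores H3 and H4, had 149, 142, 294 and 288 (1.14, 0.85 to 1.44) on a transcript without annotated coding sequence. NAP1L1 had 39, 39, 112 and 112 (1.67, 1.13 to 2.23), and a retained intron of NPM1 25, 26, 91 and 90 (1.97, 1.32 to 2.67).

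Among chaperones and exchangers of replacement histones, 2 of 17 tested transcripts were higher (11.8%) and 6 lower (35.3%), beside 18.1% and 23.5% of all. SRCAP, the motor that inserts H2A.Z, had 46, 58, 9 and 11 counts (−2.23, −3.38 to −1.24), and YEATS4, a subunit of H2A.Z-loading complexes, 110, 105, 201 and 201 (1.05, 0.70 to 1.40). The most-counted transcripts of the H3.3 chaperones HIRA, with 1, 0, 0 and 0, and DAXX, at 0, were nearly uncounted, which does not show absence. In the list of S-phase genes 2 of 18 tested transcripts were higher (11.1%) and 4 lower (22.2%), beside the same shares of all, with a median of −0.63 where that of all tested was −0.11. GINS2, a subunit of the replicative helicase, had 149, 155, 35 and 37 (−1.93, −2.50 to −1.40). Of the 8 S-phase transcripts with a mean of 30 counts or more, the interval lay below 0 for 5 and above 0 for 1, against 24.4% and 44.9% of all, and the part of S phase in the histone values was not tested.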

How the data were processed

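The authors trimmed the reads of poly-A TruSeq libraries, which the study's text calls directional, with Trim Galore, aligned them with STAR 2.5.4b to GRCh38 and counted them per transcript with Rsubread on an Ensembl annotation earlier than GENCODE 44. They deposited these counts without normalization. From these counts the authors computed the deposited FPKM values with DESeq2 1.26.0. A transcript's reads on bases shared with other transcripts appear not to be counted, and whether counting used strand is not given in the sources used here. FPKM values served for the filter and for levels.

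Symbols and coordinates are those of GENCODE 44, found for 223558 of 227368 identifiers. The older symbols H2AW, H2BU1, H4-16 and H3-2 are H2AC25, H2BC26, H4C16 and H3-7 there. The columns of each group, joined to samples by name, differed by less than counting noise, so no test across conditions was made. Ratios of mean counts were scaled by TMM (edgeR 4.0.16, R 4.3.3) over transcripts with an FPKM above 1 in at least 1 group and over 3 mean counts, and means at or under 3 counts were set to 3 in medians and calls. For H4C9, H1-2, H1-10 and H2BC6 the ratio of the counts themselves is given. Intervals are Clopper-Pearson at 95%. The ratio script was tested on simulated data.

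Named are histone transcripts averaging 30 counts or more, those at least 2-fold apart with a mean of at least 10 in a group, and list transcripts averaging 30 counts or more and at least 2-fold apart, besides the most-counted transcript of 8 genes. H3C14, H3C15, H2AC8, H2AC21, H2AC25, H2AX, MACROH2A2 and the second transcripts of H2BC5, H2AZ2 and H4C14 were named after their values were seen. Some items that the rule covers are left out of the text and the plots by name, though counts, sums and medians include them. Members, lists and rules were chosen with earlier results of these data known. Alternatives changed filter, scaling, pseudocount, test, replicate block and column.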

Additional observations from a re-analysis of the deposited data

How the results depend on the processing

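Leaving out any 1 column kept the 3 higher histone transcripts and gave 18 to 19 lower ones. The FPKM scale gave 3 higher and 16 lower, and log2(FPKM + 1) gave 3 and 14. A mean of at least 10 counts, with its own TMM factor, gave 2 and 14. Counts summed per gene gave 2 genes higher and 14 lower. With the columns taken as replicates, edgeR's quasi-likelihood test with Benjamini-Hochberg adjustment called 3 higher and 19 lower, 3 and 18 with a replicate block, and 3 and 16 by DESeq2 1.42.0. These describe the libraries. The labels do not say that the numbers pair the columns, and the deviations of same-numbered columns had a correlation of 0.037 over 7153 transcripts. At 30 mean counts or more, a filter chosen after seeing the data that also changed the TMM factor, 1 was higher and 11 lower. Without H4C14 and H4C15, also chosen then, 1 was higher. The median of the replication-dependent transcripts was −0.83 with a mean of at least 10 counts, −0.60 without a filter, −0.49 on the FPKM scale, −0.45 as log2(FPKM + 1) and −0.77 with a mean of at least 30 counts. That of the replacement transcripts was −0.91, −0.69, −0.63, −0.61 and −0.95 under these, −0.63 as log2(FPKM + 0.1), −0.76 with DESeq2 factors and −0.85 per total count. Of 140 values of single transcripts, 6 had an interval that came to hold 0: −0.31 without a filter and −0.25 on the FPKM scale for H2BC12, −0.35 and −0.31 on that scale for H3C10 and H2BC15, and 0.48 and 0.01 with 10 mean counts or more for H3-5 and H3-3B. Both medians stayed negative throughout, and apart from the scale or filter itself the cause was not tested. Few counts limit most replication-dependent genes.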
